A study of Mus musculus with 6 samples.

Results

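The genes described here encode the subunits of the muscle acetylcholine receptor, Chrna1, Chrnb1, Chrnd, Chrne and Chrng, measured in mouse quadriceps with and without a deletion of Pofut1. They are 5 of the 18194 genes that had a probe set of their own, and they were taken by symbol, through every probe set that the array annotation assigns to exactly 1 of them. This gave 7 probe sets, 1 each for Chrna1 (1418852_at), Chrnb1 (1420682_at), Chrnd (1420761_at) and Chrne (1420560_at), and 3 for Chrng (1449532_at, 1427728_at and 1452520_a_at). The Pofut1 knockout group held 3 quadriceps samples from mice that carried floxed Pofut1 and cre under the skeletal alpha-actin promoter. The control group held 3 quadriceps samples from mice with the same cre and wild-type Pofut1. All were 2-month-old C57/Bl6 mice, and 1 array was read per sample. Pofut1 encodes protein O-fucosyltransferase 1, which places O-linked fucose on EGF-like repeats of Notch receptors and other proteins. The skeletal alpha-actin promoter acts in muscle fibres, so other cells of the tissue were not the cells aimed at by the cre.

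The muscle acetylcholine receptor is a pentameric ion channel in the fibre membrane that opens when the motor nerve releases acetylcholine. Its alpha subunit carries most of each binding site, and the beta, delta and a last subunit complete the ring. In fetal muscle that last subunit is gamma (Chrng), and after birth it is replaced at the endplate by epsilon (Chrne). Nuclei under the endplate transcribe these genes most strongly. Loss of the nerve or of electrical activity raises Chrna1, Chrnd and Chrng along the rest of the fibre in rodents.

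One library differed from the rest, the array labelled control replicate 3. Its log2 values correlated with those of the other 5 arrays at 0.940 to 0.945, against 0.980 to 0.991 among those 5. Its Gapdh 3' over 5' intensity ratio, which follows the integrity of the RNA and the length of its cDNA, was 10.5, while knockout replicate 2 had 3.70 and the remaining arrays 1.73 to 1.97. Pofut1, the targeted gene, gave intensities of 220, 231 and 194 in the knockout arrays and of 301, 380 and 90.6 in those labelled control replicates 1, 2 and 3. The last of these is the lowest of all 6 and goes against its label. The sources used here do not say whether this probe set lies within the deletion. The log2 fold changes below are over all 6 arrays unless said otherwise, and the values without the array labelled control replicate 3 (5 arrays) are given for the subunits above background, for Chrng and wherever that array moved a value much. A background level was taken from 37 genes restricted to other tissues, and 95% of their values lay below an intensity of 80.4 (6.33 on the log2 scale). Of all genes, 9829 had a mean above it, and of the 37 genes 18 had higher and 19 lower values in the knockout, with 0 called. Over 5 arrays 33 of the 37 were higher and 4 lower, with a median log2 fold change of 0.03.

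RefSeq promoters of GRCm38.p6 were matched for 4 of the 5 genes. They are shown because 2 short motifs are classically tied to transcription of these genes in muscle, the E-box (CANNTG), read by myogenic factors such as MyoD and myogenin, and the N-box (CCGGAA), read by the Ets factor GABP at synaptic nuclei. The windows run from 250 to 31 bases before the RefSeq start, 5′ to 3′, and the capitals mark every E-box and N-box found on either strand.
Chrna1, chr2:73580369-73580588, minus strand: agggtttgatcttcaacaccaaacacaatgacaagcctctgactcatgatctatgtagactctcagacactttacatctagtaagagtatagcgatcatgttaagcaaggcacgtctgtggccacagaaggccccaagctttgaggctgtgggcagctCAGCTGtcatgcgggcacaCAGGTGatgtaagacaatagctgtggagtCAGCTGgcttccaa
Chrnb1, chr11:69795968-69796187, minus strand: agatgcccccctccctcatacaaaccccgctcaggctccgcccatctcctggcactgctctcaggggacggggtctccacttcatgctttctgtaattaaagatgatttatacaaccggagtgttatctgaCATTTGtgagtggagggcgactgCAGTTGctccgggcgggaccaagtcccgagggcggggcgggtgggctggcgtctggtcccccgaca
Chrne, chr11:70619225-70619444, minus strand: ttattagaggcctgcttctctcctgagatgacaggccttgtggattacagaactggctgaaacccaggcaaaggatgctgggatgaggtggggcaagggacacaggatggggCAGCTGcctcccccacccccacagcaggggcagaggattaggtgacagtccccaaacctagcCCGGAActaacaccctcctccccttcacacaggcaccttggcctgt
Chrng, chr1:87205561-87205780, plus strand: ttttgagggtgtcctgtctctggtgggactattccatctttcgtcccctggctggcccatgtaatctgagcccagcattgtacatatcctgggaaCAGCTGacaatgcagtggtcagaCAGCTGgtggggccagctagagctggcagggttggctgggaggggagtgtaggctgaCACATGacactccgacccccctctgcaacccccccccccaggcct

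All 4 windows held a CANNTG, which 62.1% of the 32851 promoter windows of the same length in the table also held. The form CAGCTG, counted within CANNTG, lay in 3 of the 4 windows (Chrna1, Chrne and Chrng) and in 11.4% of all windows. Chrna1 had it 92 and 44 bases before the start, Chrng 155 and 132 bases before, and Chrne 138 bases before, counted to its first base. The N-box letters lay in the Chrne window alone among the 4, 76 bases before the start, and in 9.47% of all windows. Chrnd and Chrng are next to each other among the coding genes of chromosome 1. A match is a string of letters and not a measured binding site.

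No subunit gene passed the test between knockout and control muscle (limma, Benjamini-Hochberg adjustment over all genes, threshold 0.05). This was 0 of 5 members, where 0 of 18194 genes (0%) were called in either direction. Of the 5 log2 fold changes, 4 were below 0 and 1 was above. Their median was -0.33, the value of the dim Chrng, against -0.0086 over all genes and 0.02 over all genes with a mean above background. Without the array labelled control replicate 3 all 5 were below 0 with a median of -0.16, again that of Chrng. The median was then -0.0042 over all genes and -0.07 over those above background. Of all 18194 genes, 8418 were higher over 6 arrays and 8734 over 5. Of the 9829 genes above background, 5284 were higher and 4545 lower over 6 arrays. Over 5 arrays 3548 of them were higher and 6281 lower, and the list counts below are to be read beside these. At an unadjusted p under 0.05 there were 0 of 5 members (2.58% of all genes), and without that array 2 of 5, Chrna1 and the below-background Chrnd (5.99% of all genes). Separate animals per sample are not stated in the labels, and the p-values cover no more than the spread of these samples, which may be technical. In whole muscle, fewer cells of a type and less RNA per cell cannot be told apart.

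**Figure D1:**
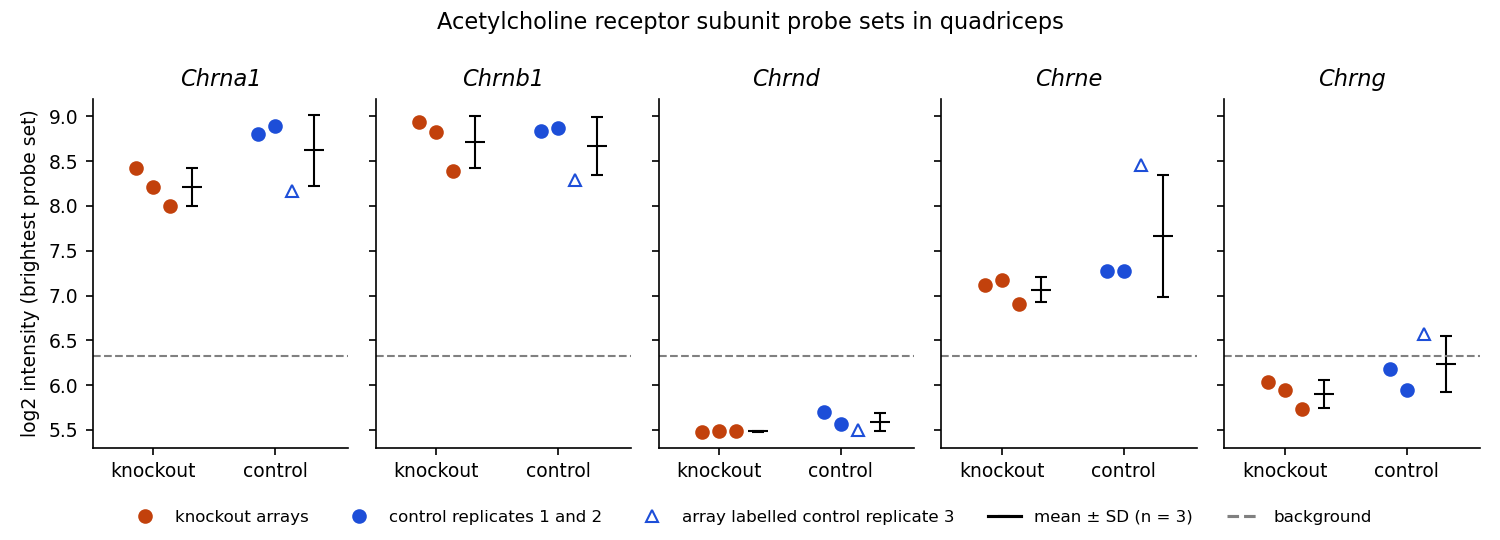
Log2 intensity (vertical axis) of the brightest probe set of each subunit gene in the 3 knockout and 3 control arrays. Filled circles are arrays, the open triangle is the array labelled control replicate 3, black bars are mean ± SD and the dashed line is the background of 6.33. Chrne and Chrng were highest in the triangle array, whereas Chrna1 and Chrnb1 were low in it, and Chrnd lay below background in every array.

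Chrna1, the subunit that carries most of the acetylcholine binding site, had intensities of 342, 296 and 255 in knockout replicates 1 to 3. In the control arrays it had 447, 476 and 287. The knockout arrays lay below control replicates 1 and 2, and the array labelled control replicate 3 fell among them, so the groups overlapped. The means were 8.21 ± 0.21 in the knockout and 8.62 ± 0.40 in the control on the log2 scale (SD, n = 3 each). The log2 fold change was -0.41 ± 0.25 (SE), with a 95% interval of -1.003 to 0.17 and an adjusted p of 0.971 in limma. The exact two-sided permutation p was 0.3, where 3 arrays against 3 allow no value under 0.1.

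Without the array labelled control replicate 3, Chrna1 was 1.56-fold lower in the knockout (log2 fold change -0.64 ± 0.16). The 95% interval was then -1.04 to -0.24 and the unadjusted limma p was 0.00740. Of all genes, 5.99% had an unadjusted limma p under 0.05 without that array. The array left out was the only control array with a Chrna1 value among those of the knockout. Chrna1 did not pass adjustment over all genes (adjusted p = 0.802 in limma).

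Chrnb1, the beta subunit, whose phosphorylation strengthens the link of the receptor to rapsyn, was the member with the smallest difference above background. It read 490, 455 and 335 in the knockout arrays and 457, 468 and 313 in the control arrays. The groups overlapped, and the lowest value in each group was that of its replicate 3. The log2 means were 8.72 ± 0.29 in the knockout and 8.67 ± 0.32 in the control (SD, n = 3 each). The log2 fold change was 0.05 ± 0.24 (SE), with a 95% interval of -0.51 to 0.62, an exact permutation p of 0.7 and a limma adjusted p of 0.989. Without the array labelled control replicate 3 the log2 fold change was -0.13 ± 0.19, so its sign was not settled. The interval was then -0.59 to 0.32. The Chrna1 change without that array (-0.64) lay just outside this interval, and the Chrna1 change over all arrays (-0.41) lay inside it. A difference between Chrna1 and Chrnb1 was not tested.

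Chrnd, the delta subunit, which forms 1 of the binding sites together with alpha, was below background in all 6 arrays. It read 44.5, 44.9 and 44.7 in the knockout arrays and 52.0, 47.5 and 45.4 in the control arrays. The knockout values lay below the control values without overlap, but both groups were under the background intensity of 80.4, so no fold is given. The limma fit gave an adjusted p of 0.971 and the exact permutation p was 0.1, the smallest that 3 arrays against 3 allow. For this gene the arrays bound the level and do not measure it.

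Chrne, the adult epsilon subunit, had intensities of 139, 144 and 120 in knockout replicates 1 to 3. In the control arrays it had 154, 155 and 351. Every knockout value lay below every control value, control replicates 1 and 2 were close to the knockout arrays, and the array labelled control replicate 3 was far above all others. The log2 means were 7.07 ± 0.14 in the knockout and 7.67 ± 0.68 in the control (SD, n = 3 each). Chrne was 1.52-fold lower in the knockout by the group means, at a log2 fold change of -0.60 ± 0.36 (SE) with a 95% interval of -1.45 to 0.25. The limma adjusted p was 0.971 and the exact permutation p was 0.1, again the smallest possible.

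Most of the size of the Chrne difference came from 1 array. Without the array labelled control replicate 3 Chrne was 1.15-fold lower in the knockout (log2 fold change -0.20 ± 0.17), with an interval of -0.61 to 0.20 and a limma adjusted p of 0.815. Chrne and Chrnd were the 2 of 5 members whose knockout values all lay below the control values. Of all genes 5.68% did so, and 7.3% of those above background.

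Chrng, the fetal gamma subunit, was dim. Its brightest probe set read 65.5, 61.8 and 53.1 in the knockout arrays, all below background, and 72.7, 61.8 and 94.8 in the control arrays, of which 1 was above. The other 2 probe sets read between 39.7 and 47.6 and were below background in every array. The groups of the brightest probe set overlapped, with log2 means of 5.90 ± 0.16 in the knockout and 6.23 ± 0.31 in the control (SD, n = 3 each). Its log2 fold change of -0.33 ± 0.19 (SE; adjusted p = 0.971 in limma; exact permutation p = 0.3) compares values near the floor of the array and is uncertain in size. Without the array labelled control replicate 3 it was -0.16 ± 0.13. In a fit over all probe sets the other 2 had log2 fold changes of 0.00063 ± 0.072 and 0.03 ± 0.04.

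**Figure D2:**
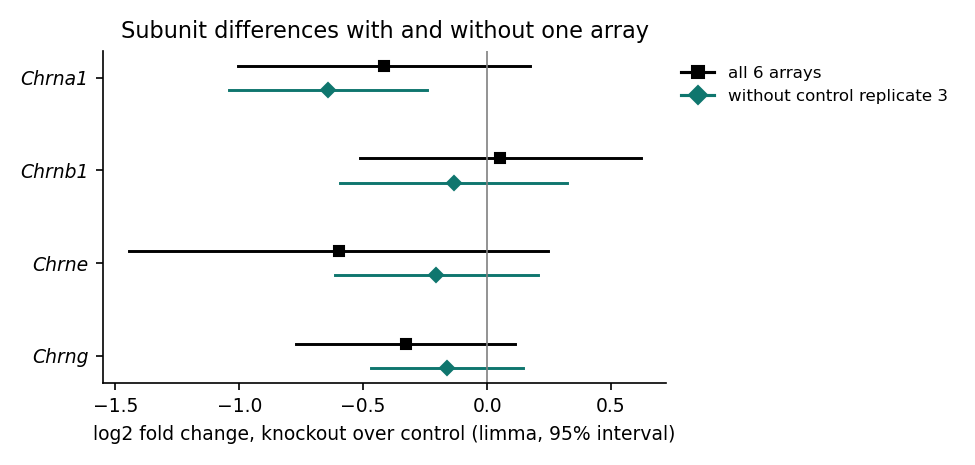
Log2 fold change of 4 subunit genes (horizontal axis), knockout over control, with 95% limma intervals, over all 6 arrays (black squares) and without control replicate 3 (green diamonds). Over all 6 arrays every interval shown holds 0, and without that array the interval of Chrna1 (-1.04 to -0.24) does not. Chrnd is left out because it lay below background in every array.

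The adult and the fetal subunit were set against each other within each array. Log2 Chrne minus log2 Chrng was 1.08, 1.23 and 1.18 in the knockout arrays. It was 1.09, 1.32 and 1.89 in the control arrays. Control replicate 1 lay among the knockout values and control replicate 2 slightly above them, and the array labelled control replicate 3 was further above. The difference of the means was -0.27, with an exact two-sided permutation p of 0.3, and it was -0.04 without that array. Chrng was below background in 5 of 6 arrays and probe sets differ in brightness, so these values compare groups only and give no ratio of the transcripts.

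Chrne in the array labelled control replicate 3 lay 1.31 log2 units (2.48-fold) above the mean of the other 5 arrays. This was at percentile 98.3 of the same difference over all genes, of which 3.17% lay more than 1 unit above and 7.61% more than 1 unit below. Chrng lay at percentile 92.2 (0.60 above), Chrnd at 42.2, Chrna1 at 27.7 (-0.30) and Chrnb1 at 20.6 (-0.48). Chrne alone of the 5 was more than 1 unit above. Neither the other control arrays (154 and 155) nor the knockout arrays (120 to 144) came near its Chrne intensity of 351. The Gapdh 3' over 5' ratio of that array was also the highest, and its part in this value was not tested.

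Other endplate genes differed in the same array, some upward and some downward. Dok7, the adaptor that activates the kinase MuSK, read 154, 154 and 119 in the knockout arrays and 194, 149 and 422 in the control arrays. Rapsn, the scaffold rapsyn that clusters the receptor, read 107, 173 and 130 in the knockout and 170, 161 and 299 in the control. Ache, acetylcholinesterase, read 141, 146 and 144 in the knockout and 156, 151 and 301 in the control. All 3 were highest in the array labelled control replicate 3, at 1.47, 1.03 and 1.03 log2 units above the other 5 arrays.

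Lrp4, the agrin receptor gene, was low in that array. It read 205, 188 and 193 in the knockout arrays and 205, 257 and 72.7 in the control arrays, where the difference of the last from the other 5 arrays was -1.52. Its log2 fold change was 0.32 over 6 arrays and -0.23 over 5. Agrn, the nerve-derived and muscle-derived clustering signal, read 256, 225 and 302 in the knockout and 187, 247 and 191 in the control. Musk, the receptor kinase at the centre of clustering, and Colq, the collagen tail of acetylcholinesterase, had means below background, although Musk in control replicate 1 read 101.

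Of 36 measured genes of receptor clustering and the synaptic scaffold, 0 passed the test in either direction, 17 had higher values and 19 lower, with a median log2 fold change of -0.01, and the same counts held over 5 arrays. Dok7 had -0.70 ± 0.40 and Rapsn -0.59 ± 0.32 over 6 arrays, and -0.27 and -0.31 without the array labelled control replicate 3. The smallest unadjusted p in this list belonged to Rac1, a GTPase of the cytoskeleton, at 0.26 ± 0.12 (0.17 over 5 arrays), and to Macf1, a linker of microtubules and actin, at 0.52 ± 0.26 (0.28 over 5 arrays; adjusted p = 0.971 in limma for both). In that array 3 of the 36 lay more than 1 unit above the other 5 arrays and 4 more than 1 unit below, 8.33% and 11.1%. Among all genes above background, 4.12% lay more than 1 unit above and 13.96% more than 1 unit below. The share below in this list was thus not larger than among those genes.

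**Figure D3:**
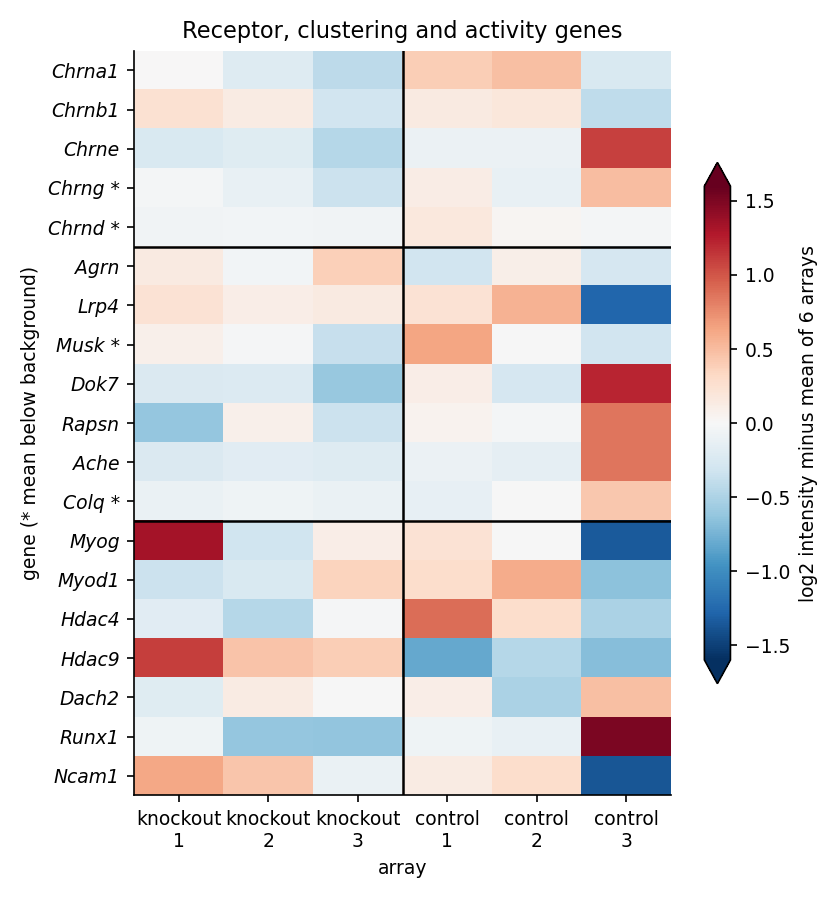
Log2 intensity of each gene (rows) in each array (columns) minus the mean over the 6 arrays, from blue (lower) to red (higher). Chrne, Dok7, Rapsn, Ache and Runx1 were highest in the array labelled control replicate 3, whereas Lrp4, Myog and Ncam1 were lowest there. Asterisks mark genes with a mean below background.

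Genes that follow the activity of the fibre or the loss of its nerve were examined because Chrna1, Chrnd and Chrng belong to that response. Of 30 measured genes 0 passed, 11 had higher values and 19 lower, with a median log2 fold change of -0.06 (-0.10 over 5 arrays). Hdac9, a class IIa histone deacetylase that in mouse muscle restrains the transcription of receptor subunit genes, read 293, 186 and 178 in the knockout arrays and 77.2, 98.6 and 84.7 in the control arrays. The groups did not overlap, as in 3.33% of all genes in this direction, and the log2 fold change was 1.30 ± 0.27 (1.29 over 5 arrays; adjusted p = 0.971 in limma). The control values lay near the background intensity of 80.4, so this change is uncertain in size.

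Hdac4, a deacetylase of the same class that rises after denervation in mice, had intensities of 303, 251 and 339 in the knockout arrays and of 642, 418 and 243 in the control arrays. Its log2 fold change was -0.45 ± 0.36 over 6 arrays and -0.81 without the array labelled control replicate 3 (unadjusted p = 0.012 and adjusted p = 0.802 in limma without that array). Hdac5, also of this class, had a log2 fold change of 0.18 ± 0.20 (0.10 over 5 arrays). A link of these deacetylases to the subunit values was not tested.

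Of the myogenic factors that read the E-box, neither Myog nor Myod1 passed the test. Myog, myogenin, read 357, 114 and 153 in the knockout arrays and 167, 141 and 55.9 in the control arrays, with a log2 fold change of 0.75 ± 0.56, and 0.26 over 5 arrays. Knockout replicate 1 stood out as high and the array labelled control replicate 3 as low. Myod1 read 261, 279 and 423 in the knockout and 401, 499 and 210 in the control, at -0.15 ± 0.36, and -0.51 over 5 arrays. Id1, an inhibitor of these factors, had 0.45 ± 0.22, and Dach2, a repressor of Myog in mouse muscle, -0.05 ± 0.29 (0.18 over 5 arrays).

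Ncam1 and Runx1, which rise in denervated fibres, did not pass either. Ncam1, the neural cell adhesion molecule, read 471, 419 and 285 in the knockout arrays and 336, 374 and 119 in the control arrays (0.64 ± 0.46, and 0.11 over 5 arrays). Runx1, a transcription factor induced by denervation, read 108, 73.1 and 72.8 in the knockout and 107, 103 and 320 in the control (-0.87 ± 0.47, and -0.34 without the array labelled control replicate 3). In that array Runx1 was 1.81 log2 units above the other 5, and the same difference for Ncam1 was -1.65.

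Factors of synaptic transcription, from neuregulin to the Ets proteins that read the N-box, had 7 of 13 measured members higher and 6 lower, with 0 called and a median log2 fold change of 0.08 (0.01 over 5 arrays). Egr1, an immediate early factor, had -0.62 ± 0.32, and Prkar1a, a regulatory subunit of protein kinase A, 0.30 ± 0.17 (0.17 over 5 arrays). Of 19 genes of receptor assembly, folding and trafficking, 6 were higher and 13 lower, with 0 called and a median of -0.04 (8 higher, 11 lower and -0.07 over 5 arrays). Lynx1, a toxin-like protein that binds nicotinic receptors, read 834, 789 and 874 in the knockout arrays and 1068, 890 and 1418 in the control arrays. Its log2 fold change was -0.41 ± 0.19 (-0.23 over 5 arrays). The knockout values of Lynx1 and of Ly6e lay below all control values, as in 5.68% of all genes and 7.3% of those above background. Gfpt1, an enzyme of hexosamine synthesis, had -0.29 ± 0.18.

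The subunits of neuronal nicotinic receptors gave no measured level. Of 10 such genes 0 had a mean above background, 3 had higher values and 7 lower, between -0.24 and 0.16, and over 5 arrays 6 were higher and 4 lower. Chrna2 and Chrnb2 had the smallest unadjusted p, and both were below background in every array. Genes of muscle excitation, among them the calcium release channel and junctophilins, had 7 of 11 higher and 4 lower with 0 called and a median of 0.07. Over 5 arrays this turned to 4 higher and 7 lower with a median of -0.07. All genes above background moved likewise, from a median of 0.02 over 6 arrays to -0.07 over 5. The smallest unadjusted p in that list belonged to Jph1 at 0.23 ± 0.12 and Atp1b1 at 0.19 ± 0.10.

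**Figure D4:**
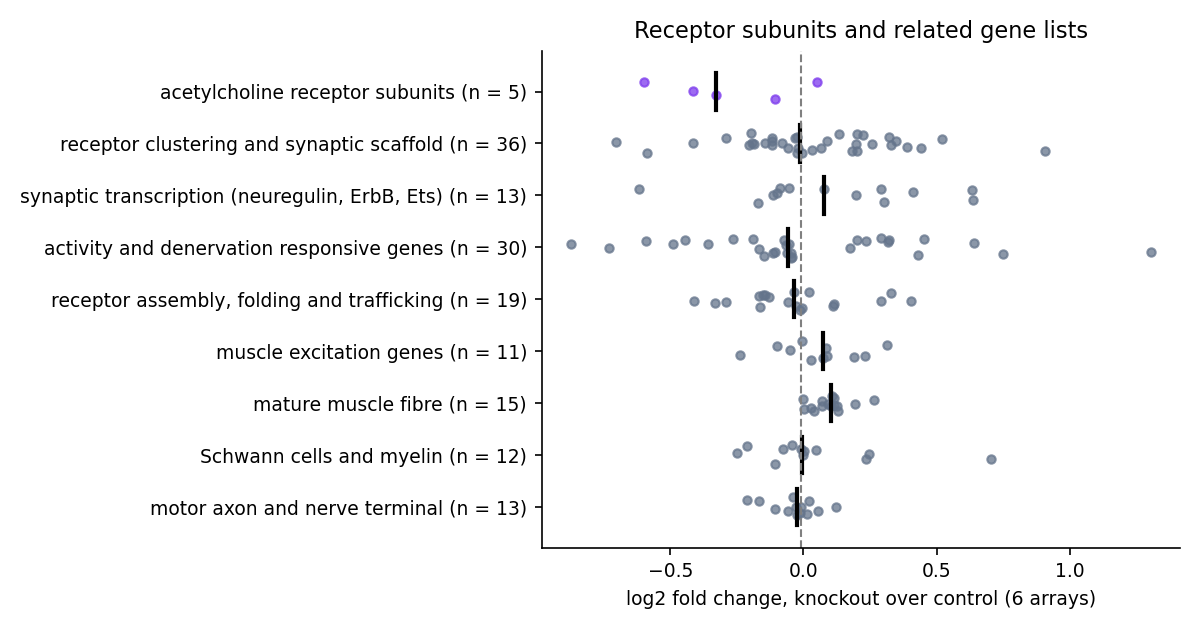
Log2 fold change of single genes (dots, horizontal axis), knockout over control over 6 arrays, for the receptor subunits and related lists, with black bars at list medians and a dashed line at the median of all genes. The subunit median of -0.33 is the value of the dim Chrng, and the medians of the other lists shown lay between -0.06 and 0.10. Over 5 arrays the subunit median was -0.16, and lists not shown reached -0.23 (erythroid) and 0.35 (adipocytes) over 6.

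The tissue label was checked with 15 markers of mature fibres, and all 15 were above background. Of these 14 had higher values in the knockout, with a median log2 fold change of 0.10 and 0 called. Their summed intensity was 136124 to 143330 in the knockout arrays and 127028 to 134120 in the control arrays. Over 5 arrays 12 of 15 were higher, with a median of 0.10, and the part of fibre content in the subunit values was not tested. Tnnt3, fast troponin T, had 0.19 ± 0.08 and Acta1, whose promoter drives the cre, 0.13 ± 0.08.

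Of 13 motor axon and nerve terminal genes 0 had a mean above background, so the list does not measure nerve content. The sums were 584 to 597 in the knockout and 589 to 636 in the control, and Nefl and Tubb3 had the smallest p. Uchl1 read 69.1, 61.9 and 69.3 in the knockout arrays and 102, 98.6 and 45.9 in the control arrays (-0.21, and -0.59 over 5 arrays). Of these 13 genes 4 were higher and 9 lower over 6 arrays, and 8 higher and 5 lower over 5. Of 12 Schwann cell genes 5 were above background, with sums of 3116 to 3624 in the knockout and 2284 to 3747 in the control, and a median of -0.0047 (-0.03 over 5 arrays). In that list Mbp, a myelin protein gene, had 0.70 ± 0.31 (0.42 over 5 arrays) and Ncmap -0.25 ± 0.15, the second below background. Satellite cell markers had 6 of 12 higher and a median of 0.0089 (4 of 12 and -0.15 over 5 arrays). Their sums were 6002 to 6730 in the knockout and 4666 to 7141 in the control. Des alone read 3135 to 4204 in the knockout and 2855 to 4603 in the control, and Pax7 read 42.6 to 118 over all arrays. The sums thus mostly follow Des and do not measure satellite cell content. Notch3 had 0.79 ± 0.42 and Heyl -0.33 ± 0.35 (0.017 over 5 arrays). None of these lists had a called member, and their part in the subunit differences was not tested.

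Markers of other cells moved in several ways. For comparison, of the 9829 genes above background 5284 were higher over 6 arrays and 3548 over 5. Adipocyte genes were higher in 8 of 8 (median log2 fold change 0.35) and over 5 arrays in 6 of 8 (median 0.10). Among them were Car3 at 0.35 ± 0.12 (0.27 over 5 arrays) and Retn at 0.35 ± 0.36 (0.10 over 5 arrays). Car3 read 5238 to 8133, as bright as the fibre marker Ckm (4968 to 7044), and its cell source was not tested. Endothelial genes were higher in 8 of 10 with all arrays (median 0.20) and with 5 (median 0.23), with Cdh5 at 0.57 ± 0.19 and Vwf at 0.38 ± 0.22. Macrophage genes were higher in 4 of 10 (median -0.09) and over 5 arrays in 1 of 10 (median -0.35), with C1qb at -0.44 ± 0.24 and Adgre1 at -0.74 ± 0.43 (-0.50 over 5 arrays). Fibroblast genes were higher in 5 of 9 (median 0.09) and over 5 arrays in 1 of 9 (median -0.09), with Pdgfra at -0.28 ± 0.23 and Postn at -0.44 ± 0.37 (-0.05 and -0.02 over 5 arrays). Erythroid genes were higher in 1 of 3 in both fits, with Slc4a1 and Hba-a1 below background. None was called, and their part in the subunit values was not tested.

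The genes whose log2 values ran most closely with a subunit over the 6 arrays were picked as the highest of 9829 genes above background, so the coefficients describe these arrays and carry no test. For Chrna1 they were Ppme1 (Pearson r = 0.995) and Zfp397 (0.992), for Chrnb1 Pgf (0.997) and Pbx2 (0.995), and for Chrne Zbtb48 (0.998) and Arhgef25 (0.997). Zbtb48 read 95.6, 94.9 and 87.1 in the knockout arrays and 99.7, 102 and 178 in the control arrays, so its likeness to Chrne rests on the array labelled control replicate 3. Over the 5 arrays without it the nearest were Ppme1 and Nfatc4 for Chrna1, Zgpat and Pgf for Chrnb1, and Fmnl2 and Slc35b1 for Chrne, so Ppme1 and Pgf were on both lists and no gene was for Chrne. The subunits themselves ran together to different degrees over 6 arrays, with r of 0.68 between Chrna1 and Chrnb1, -0.12 between Chrna1 and Chrne, -0.54 between Chrnb1 and Chrne, and 0.93 between Chrne and Chrng. Over 5 arrays these were 0.66, 0.88, 0.83 and 0.80, so both negative signs rest on the array labelled control replicate 3. These values share the arrays and their RNA quality.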

How the data were processed

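Total RNA of 6 quadriceps samples was amplified and biotin-labelled with the NuGEN Ovation system, per the labels' protocols. The deposited values were probe set intensities, which the authors made with GCOS and RMA per the submitters' processing notes (versions not stated). They lay between 37.2 and 16069, hence on a linear scale, and any rescaling after RMA is unknown. RMA compresses differences of dim genes. Of 45101 probe sets the platform annotation gave 34958 a single gene, and the brightest of these stood for each of 18194 genes.

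Log2 intensities, with no pseudocount, were tested by group with limma 3.58.1 (R 4.3.3; lmFit and eBayes with a variance trend). Tests were two-sided, and Benjamini-Hochberg adjustment ran over all genes, at 0.05. The limma fit was tested on simulated data with independent noise and no outlying array, so that check does not cover an array such as control replicate 3. The number of arrays limits the precision. Deviations from the group means correlated at 0.19, -0.15 and -0.11 between same-numbered samples. The control mean includes the outlying replicate 3, so these values cannot show or exclude a pairing. Members, 17 gene lists and tests were chosen with earlier results of these data known. Named were the members, their nearest genes, fixed endplate and activity genes and the 2 smallest p of each list. Alternatives covered scaling, weights, variance models, filters, probe sets, RNA quality and left-out arrays.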

Additional observations from a re-analysis of the deposited data

How the results depend on the processing

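Under 18 alternatives limma called 0 genes and 0 subunits, as over all 6 arrays. Chrna1 stayed below 0 in all 18 (-0.64 to -0.28), Chrne in all 18 (-0.80 to -0.20), and Chrng (-0.47 to -0.10) in the 17 that keep it, since the filter on dim genes removes it and Chrnd, which kept its side in the same 17 but lay below background. The lowest adjusted p of any subunit was 0.326, for Chrna1 with array weights. Chrnb1 reversed to -0.13 with array weights, -0.037 with the Gapdh ratio as a covariate and -0.19 without both arrays of high Gapdh ratio, and ranged over -0.13 to 0.22 when single arrays were left out, with -0.06 without knockout replicate 1, -0.0027 without knockout replicate 2 and -0.13 without control replicate 3. Chrne minus Chrng kept its sign in 10 of 10 (-0.50 to -0.04), but its size did not hold. The -0.50 came with the mean of probe sets, which takes in the dimmer Chrng probe sets below background. The -0.04 came without control replicate 3. With the replicate block the log2 fold changes were unchanged (Chrna1 -0.41, adjusted p = 0.9998 in limma), 377 genes had an unadjusted p under 0.05 against 469, and 2 of 6 arrays correlated best with their own number. That count was 1854 with array weights, 1169 with the Gapdh covariate, 1362 without both arrays, 786 without the variance trend, 709 over every probe set, 284, 276 and 284 without knockout replicates 1, 2 and 3, and 1090 without control replicate 3. Causes were not tested. Levels near background limit Chrnd and Chrng.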
